A study of Mus musculus with 26 samples.

Results

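The nuclear genes for subunits of the mitochondrial respiratory chain and of ATP synthase were followed as a group of 84 genes, out of 18193 mouse genes that had a probe set assigned to them alone. Members were taken by symbol: those that start with Ndufa, Ndufb, Ndufc, Ndufs, Ndufv, Uqcr, Atp5 or Cox4 to Cox8, without the Ndufaf assembly factors, and Sdha, Sdhb, Sdhc, Sdhd, Cyc1 and Cycs. They were represented by 174 probe sets, of which the brightest per gene was used. By symbol, 36 belonged to complex I, 4 to complex II, 9 to complex III, 1 was cytochrome c, 17 belonged to complex IV and 17 to ATP synthase. A filter on low signal was passed by 79 of the 84, and the 5 that did not pass (Cox6b2, Cox7a1, Cox7b2, Cox7c and Cox8b) were all complex IV genes. Every symbol is given as the files spell it, so that the α subunit of ATP synthase stands as Atp5a1.

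The cells were immortalized mouse embryonic fibroblasts, fibroblasts that come from mouse embryos and grow without limit in culture. Each of 3 parental lines, named WA, WB and WC, received the retroviral vector pBabe-puro, either empty, with human c-myc or with v-src, which gave 9 groups on 26 arrays, numbered within a group as in the labels. Each group had 3 arrays except WB with v-src, which had 2, since its replicate 1 was not analysed here. The study set these transformed fibroblasts beside an expression signature of anchorage-independent growth that had been derived from human breast cancer cell lines. All groups therefore share immortalization and exposure to a retroviral vector. The labels do not say whether an infected population was a pool or a clone, nor whether replicates were separate cultures, so tests between arrays measure a spread that may be technical.

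The respiratory chain sits in the inner mitochondrial membrane. Complex I takes electrons from NADH and complex II from succinate, ubiquinone carries them to complex III, and cytochrome c passes them to complex IV, which reduces oxygen. Complexes I, III and IV pump protons, and ATP synthase makes ATP as the protons return. A small share of the subunits is encoded by mitochondrial DNA, which the choice by symbol leaves out. The c-Myc protein is a transcription factor that binds the E-box CACGTG and is known for its effects on growth and mitochondrial genes, and v-Src is a constitutively active tyrosine kinase.

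Values are probe set signals scaled to the same trimmed mean on every array, so a change in the amount of RNA per cell, or in the share of one kind of cell, cannot be told apart from a change per transcript. Differences are on the scale log2(signal + 23). A gene was called where limma's adjusted p was under 0.05 over the 13018 genes tested. Arrays correlated with the rest of their own group with r between 0.970 and 0.987 across genes, which are not independent replicates, and the lowest values belonged to WC c-myc array 1 and WA empty array 3. Of 10 fibroblast markers 10 passed the filter, with a summed group mean between 84570 and 127793. Single fibroblast markers were not uniform across arrays. Dcn lay between 20.6 and 17076, Lum between 14.4 and 1862, Pdgfra between 102 and 6389 and Thy1 between 735 and 19825. Vim, by contrast, lay between 18636 and 30301. Summed group means were 885 to 1215 for macrophages and blood (4 of 6 passed), 412 to 536 for endothelium (3 of 5), 945 to 4211 for epithelium (4 of 5), 882 to 2264 for muscle (6 of 8), 725 to 2195 for nerve and glia (4 of 4) and 63.5 to 2035 for fat (1 of 4). Ptprc, Pecam1, Myog and Adipoq, which mark blood, endothelial, muscle and fat cells, did not pass. Other markers of the same cells did pass, among them Csf1r, up to 852, Kdr, up to 306, Myod1, up to 149, Tnnt2, up to 1161, and Fabp4, up to 2094, and Epcam, an epithelial adhesion gene, lay between 97.2 and 5624. Whether these genes had a part in the results was not tested, and whether the arrays register the vectors' own human c-myc and v-src was not checked.

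Of the subunit forms described here, those found in most tissues gave strong signals in every line, apart from Cox7c and Ndufb4. Forms known from muscle or other special tissues gave low signals, with the exception of Cox8c. Signals of different probe sets are not on a common scale, so each form is described alone. Cox4i1, the common form of subunit 4, lay between 8106 and 12544, and Cox4i2, known from lung, lay between 112 and 214. Cox6a1, the common form of subunit 6a, lay between 10347 and 16981, and its muscle counterpart Cox6a2 between 66.4 and 279.6. For subunit 7a, the common Cox7a2 lay between 11520.0 and 17310.0, the related assembly factor Cox7a2l between 2327 and 4027, and the muscle form Cox7a1 between 4.94 and 155.

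Subunit 8 had a common form, Cox8a, between 6113 and 10234, a muscle form, Cox8b, between 10.1 and 109.8, and a testis form, Cox8c, between 629 and 1244 on all 26 arrays. Cox6b1 lay between 5736 and 9941, and Cox6b2, its testis counterpart, between 7.35 and 112. Cox7b2, another form known from testis, lay between 1.94 and 49.6. Ndufa4, named as a complex I subunit but since placed with complex IV, lay between 5341 and 8005, and the related Ndufa4l2 between 39.6 and 143. The probe set kept for Cox7c, a form present in most tissues, lay only between 2.99 and 152, and that kept for Ndufb4 between 56.3 and 183. Both are therefore poor measures here; 10 further probe sets match a member together with other genes, among them those of Ndufb4, and were not used.

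**Figure D1:**
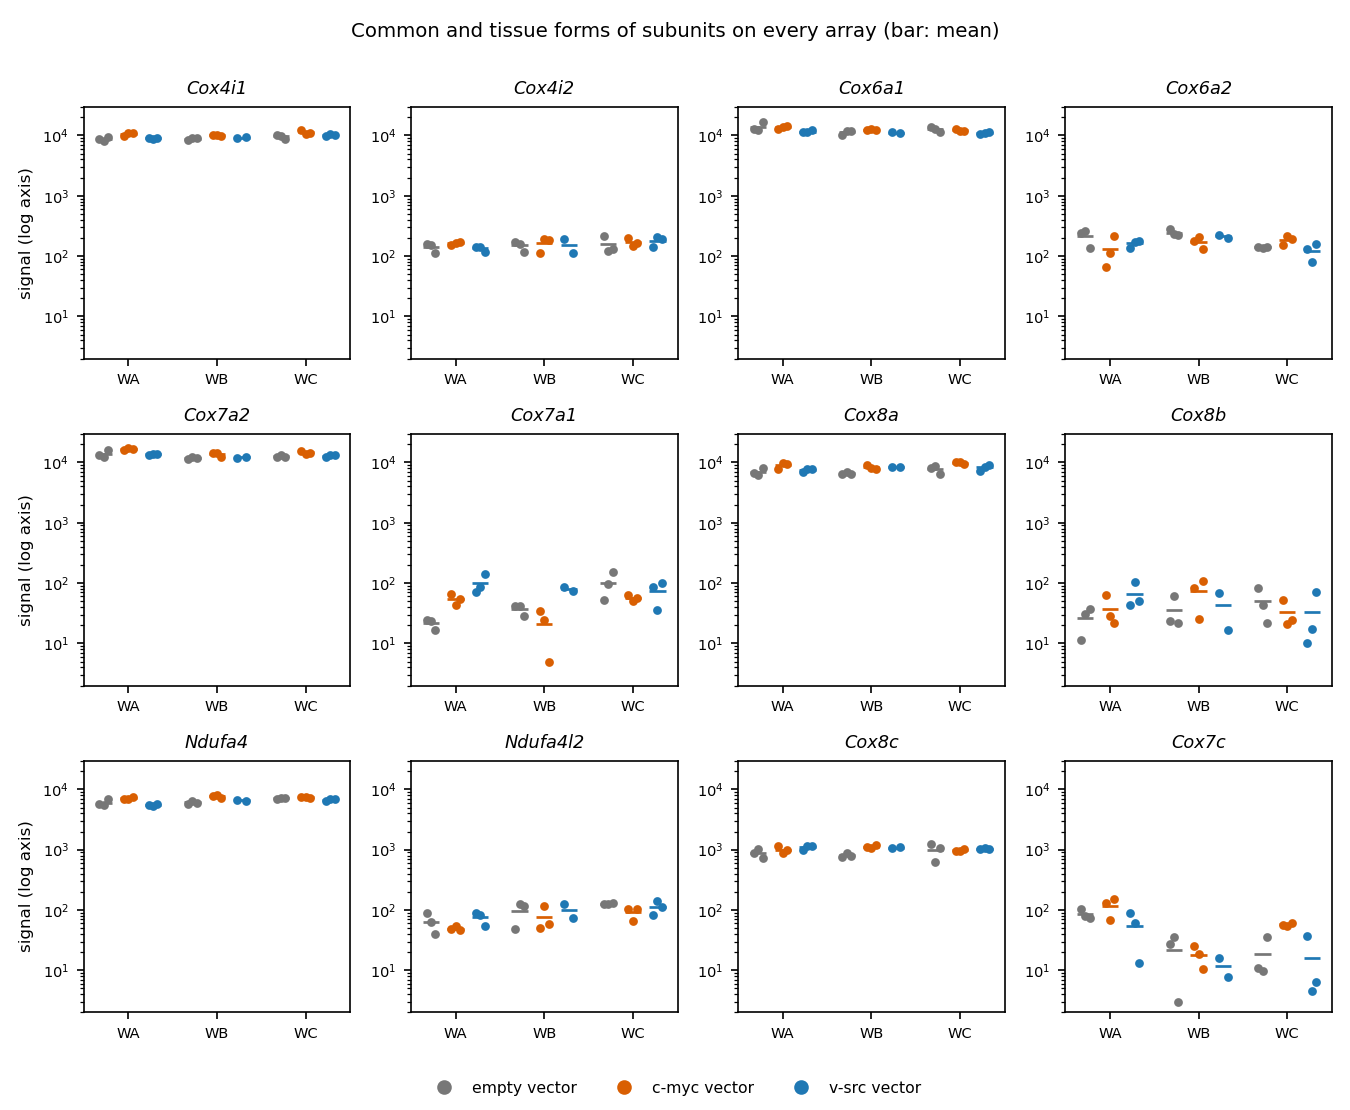
Signal on a log axis, for each of the 26 arrays, of common and tissue forms of complex IV subunits and of Ndufa4 and Ndufa4l2, by parental line and vector, with the group mean as a bar. Cox4i1, Cox6a1, Cox7a2, Cox8a and Ndufa4 lie between 5341 and 17310 on every array, and Cox7a1, Cox8b and Cox7c do not pass 155 on any array.

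With c-myc, subunit genes were higher as a group, by small amounts. Over the 3 lines, 21 of the 79 tested members rose, where 10.0% of all genes did, and 0 fell, where 9.76% of all genes did. In limma's test 40 of the 79 had an unadjusted p under 0.05, in either direction, and fits to the single arrays called 2 or 3 members lower. The matching shares of all genes were not counted. The median difference of the members was 0.19, against 0.04 over all genes tested, and single members ranged from -0.38 to 0.58. The difference was positive in each of the 3 lines for 56 members (30.9% of all genes) and negative in each for 5 (25.3%).

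By complex, the counts and medians were as follows. In complex III 6 of 9 members rose (median 0.34), in complex I 7 of 36 (median 0.19), in complex II 1 of 4 (0.26), in complex IV 3 of the 12 that passed (0.15) and in ATP synthase 4 of 17 (0.16). Cytochrome c, Cycs, was higher by 0.23 (SE 0.07, adjusted p = 0.0547) and was not called. The dimmer probe sets of Cycs gave 0.46 (mean log2 value 12.87), 0.44 (11.41) and -0.18 (6.62), so its value depends on the probe set. On 17 members every c-myc array lay above every empty vector array in each of the 3 lines (9.03% of all genes), and on 0 every c-myc array lay below (9.33%). Without single arrays the count of members that rose went from 17 to 27, and it was 8 with each array centred on its median and 23 after quantile normalization. The count was 6 without an intensity trend, 36 (2 lower) with the arrays blocked at random by line and vector, and 52 (3 lower) with the arrays as separate values, or 51 (3 lower) with a replicate block as well. For these alternatives the share of all genes called was not counted. With 1 line left out it was 0 without WA, 0 without WC and 12 without WB, where only 2 lines are left. Of the 21 calls, 12 held without any single array, and 6 held under every alternative that kept all 3 lines: Atp5a1, Cyc1, Ndufs1, Ndufs7, Sdhd and Uqcrfs1.

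**Figure D2:**
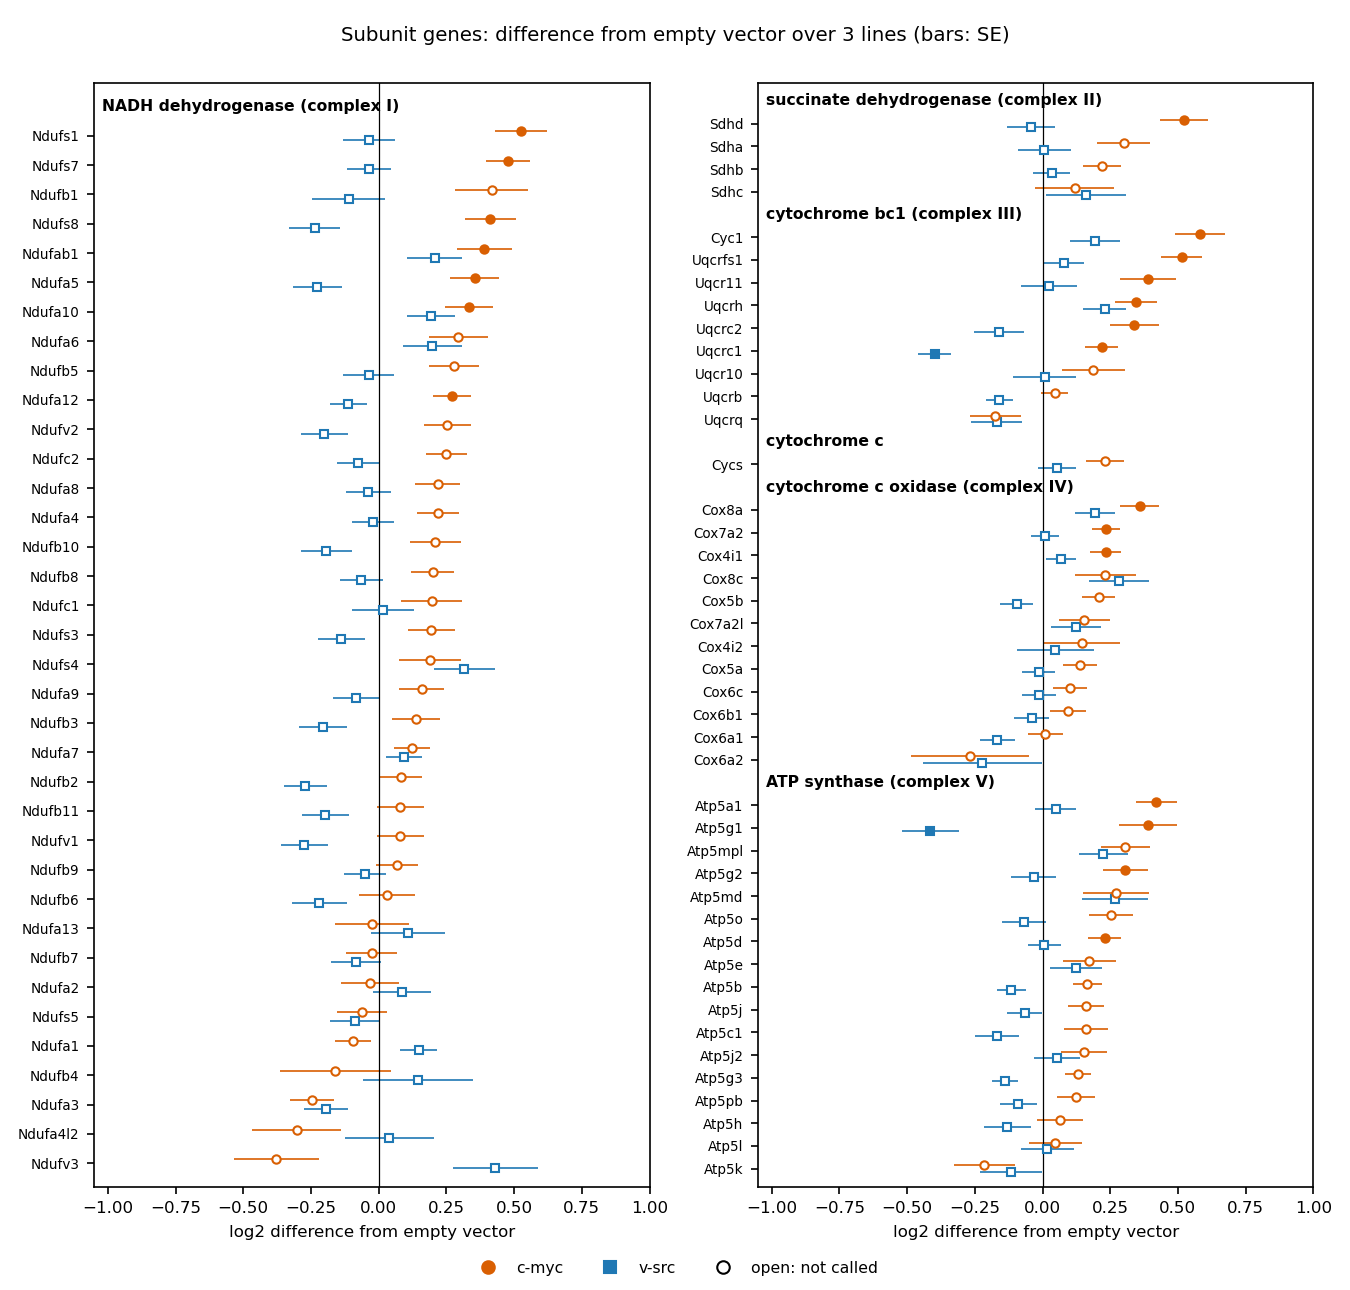
Difference from empty vector on the log2 scale over 3 lines for the 79 members that passed the filter, ordered within each complex, with c-myc as circles, v-src as squares and the SE as bars. Filled symbols are called. Most c-myc symbols lie right of 0, from -0.38 to 0.58, while v-src symbols lie on both sides.

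Promoter sequences of members that rose with c-myc, from RefSeq's annotation of GRCm38.p6, are shown because c-Myc is a factor with a known binding motif. Of the 84 members 68 had a promoter window, from 250 bases before to 50 bases after a start, and 16 of these had risen with c-myc. The stretches are the 120 bases that end just before the start, in the sense of the gene, and capitals mark 1 of 3 motifs searched on both strands: the E-box CACGTG, the NRF1 core GCGCATGCGC, both of which read the same on either strand, and the ETS motif CCGGAAGT with its reverse ACTTCCGG. No stretch holds more than 1 of these motifs. All 6 genes are on the minus strand: Atp5g1 at chr11:96075632-96075751, Atp5g2 at chr15:102671048-102671167, Uqcr11 at chr10:80406822-80406941, Uqcrh at chr4:116075071-116075190, Uqcrfs1 at chr13:30545317-30545436 and Sdhd at chr9:50603850-50603969. The first 4 were chosen because they hold a motif, and Uqcrfs1 and Sdhd because they were among the members that rose most.
Atp5g1: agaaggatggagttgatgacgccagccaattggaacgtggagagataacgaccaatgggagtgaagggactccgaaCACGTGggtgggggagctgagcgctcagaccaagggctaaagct
Atp5g2: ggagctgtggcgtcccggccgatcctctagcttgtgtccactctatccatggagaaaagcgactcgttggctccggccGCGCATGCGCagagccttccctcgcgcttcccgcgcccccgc
Uqcr11: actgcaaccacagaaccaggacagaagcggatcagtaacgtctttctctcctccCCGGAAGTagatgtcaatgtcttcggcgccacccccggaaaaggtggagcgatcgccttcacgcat
Uqcrh: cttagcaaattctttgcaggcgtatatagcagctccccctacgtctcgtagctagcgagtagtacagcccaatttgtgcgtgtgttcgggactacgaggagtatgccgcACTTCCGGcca
Uqcrfs1: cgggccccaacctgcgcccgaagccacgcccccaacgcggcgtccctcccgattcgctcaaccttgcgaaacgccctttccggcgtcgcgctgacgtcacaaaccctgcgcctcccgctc
Sdhd: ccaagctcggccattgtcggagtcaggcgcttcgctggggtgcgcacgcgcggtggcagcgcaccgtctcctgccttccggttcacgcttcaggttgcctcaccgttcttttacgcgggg

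The E-box stood in the window of 8.82% of the 68 members, of 6.25% of the 16 that rose with c-myc, of 8.09% of all 27025 genes with a window and of 11.2% of the 10452 genes tested here. The members' share was thus below that of the genes tested. In Atp5g1 it began 44 bases before the start. The NRF1 core, bound by a regulator of respiratory genes, stood in 5.88% of the members, 12.5% of those that rose and 1.07% of all genes, and 2.15% of the genes tested. The ETS motif stood in 7.35% of members, 18.8% of those that rose, 4.31% of all genes and 8.33% of the genes tested. With 16 genes these shares stand for 1, 2 and 3 genes. A match describes letters in this window and does not show that a factor binds there.

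Complex III held the member that rose most. Cyc1 codes for cytochrome c1, the haem protein that hands electrons to cytochrome c. Its signals with the empty vector were 5092, 5022 and 5541 in WA, 5368, 5846 and 5449 in WB and 4427, 4984 and 5111 in WC. With c-myc they were 7845, 7652 and 8111 in WA, 7307, 7074 and 6694 in WB and 8446, 8096 and 9034 in WC. With v-src they were 5299, 5767 and 6547 in WA, 5945 and 5692 in WB and 5519, 6809.8 and 6174 in WC. All 9 c-myc arrays lay above all 9 empty vector arrays, whatever the line, and the v-src arrays overlapped the empty vector range in WA and WB. Cyc1 rose with c-myc by 0.58 (SE 0.09, adjusted p = 0.00693), 1.5-fold.

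Uqcrfs1 codes for the Rieske iron-sulfur protein, the other electron carrier of complex III that is encoded in the nucleus. Uqcrfs1 signals without an oncogene were 3812, 3998 and 3653 in WA, 3521, 3791 and 3681 in WB and 2759, 3164 and 3211 in WC. In c-myc cells Uqcrfs1 gave 5503, 5742 and 6029.8 in WA, 4733, 5058 and 4554 in WB and 4440.2, 4702 and 4443 in WC. In v-src cells it gave 4103, 4047 and 4076 in WA, 3807 and 3711 in WB and 3240.0, 3374 and 3184 in WC. The c-myc arrays lay above the others in each line, and v-src arrays lay close above or within the empty vector range. The rise with c-myc was 0.51 (SE 0.08, adjusted p = 0.00567), 1.43-fold.

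The structural subunits of complex III had smaller differences. Uqcrc2, a core protein, rose by 0.34 (SE 0.09, adjusted p = 0.037) and its partner Uqcrc1 by 0.22 (SE 0.06, adjusted p = 0.0402). Uqcrh, the hinge protein next to cytochrome c1, rose by 0.35 (SE 0.08, adjusted p = 0.0212), and the small subunit Uqcr11 by 0.39 (SE 0.10, adjusted p = 0.0367). The calls of Uqcrc2 (without WB c-myc array 2, 0.32, adjusted p = 0.0621) and Uqcr11 (without that array 0.37, adjusted p = 0.0516, and without WC c-myc array 1 0.35, adjusted p = 0.0511) were lost without these arrays. The call of Uqcrc1 was lost without any of 8 arrays (arrays 1 and 2 of WA and array 1 of WB and 2 of WC with the empty vector, array 3 of WA and 1 of WC with c-myc, array 1 of WA and 2 of WB with v-src), with differences from 0.19 to 0.22. Uqcrq, another small subunit, had the lowest value of the complex, -0.17 (SE 0.09, adjusted p = 0.23).

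**Figure D3:**
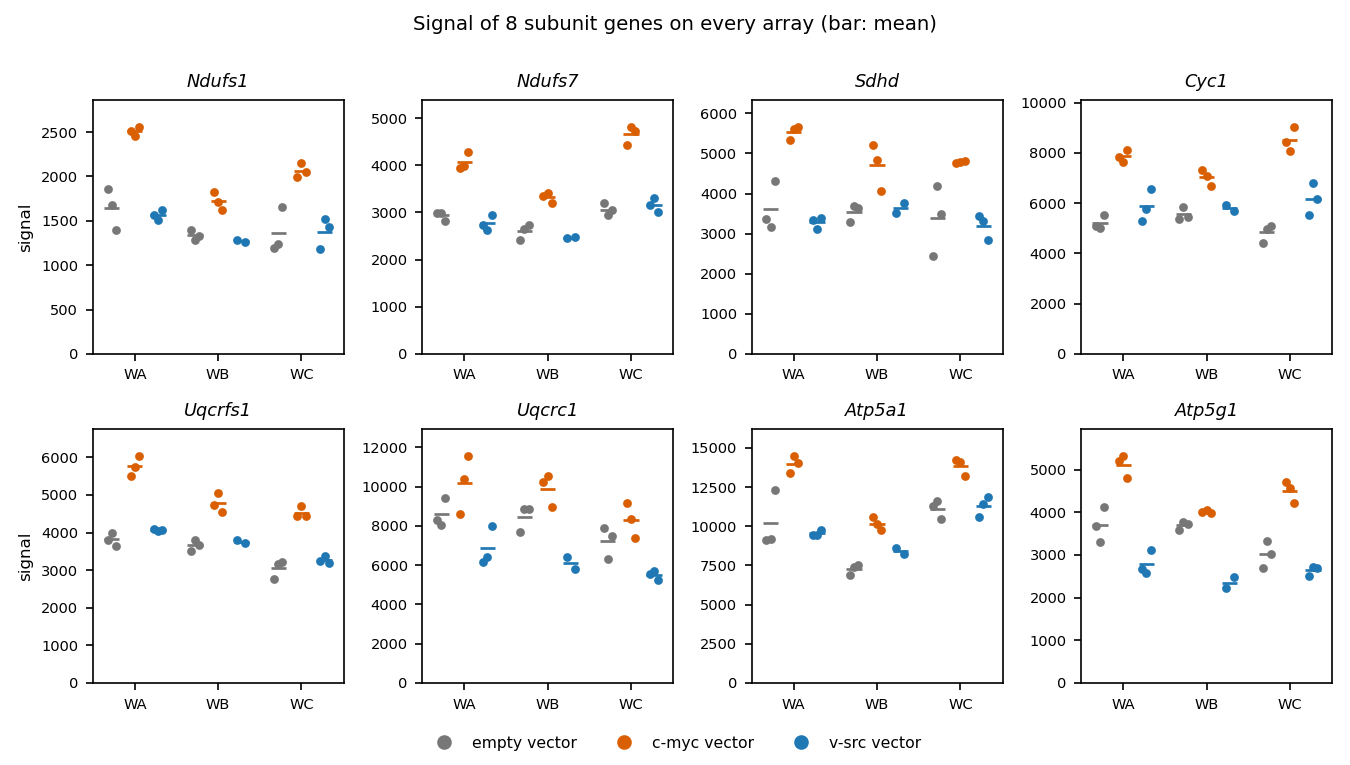
Signal of 8 members on each of the 26 arrays by parental line and vector, on axes that start at 0, with the group mean as a bar. For Ndufs1, Ndufs7, Sdhd, Cyc1, Uqcrfs1, Atp5a1 and Atp5g1 each line's c-myc arrays lie above its empty vector arrays, and for Uqcrc1 each line's v-src arrays lie below them.

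Among the called members of complex I, those that rose most carry iron-sulfur clusters. Ndufb1, an accessory subunit, was at 0.42 and was not called, although its c-myc arrays lay above the empty vector arrays in each line. Ndufs1, the large core subunit of the arm that oxidizes NADH, had signals with the empty vector of 1862, 1674 and 1391 in WA, 1396, 1286 and 1328 in WB and 1197, 1240.3 and 1656 in WC. Its c-myc signals were 2518, 2457 and 2557 in WA, 1827, 1714 and 1619.9 in WB and 1988, 2156 and 2050.0 in WC. Its v-src signals were 1564, 1509 and 1625 in WA, 1287 and 1259.9 in WB and 1178, 1518 and 1426 in WC. Within each line the c-myc arrays stood clear of all others, while v-src and empty vector arrays overlapped, and the rise with c-myc was 0.53 (SE 0.10, adjusted p = 0.0102), 1.44-fold.

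Ndufs7, a core subunit next to the ubiquinone site, gave 2990.2, 2992 and 2828 in WA, 2411, 2643 and 2736 in WB and 3194, 2936 and 3045 in WC with the empty vector. With c-myc Ndufs7 gave 3949, 3993 and 4292 in WA, 3339, 3407 and 3210.5 in WB and 4442, 4813 and 4733 in WC. With v-src it gave 2736, 2628 and 2950.0 in WA, 2461 and 2472 in WB and 3162, 3317 and 3004 in WC. It rose with c-myc by 0.48 (SE 0.08, adjusted p = 0.00848), with no overlap in any line, and its neighbour in the enzyme, Ndufs8, rose by 0.41 (SE 0.09, adjusted p = 0.0212). The other risers were Ndufab1, the mitochondrial acyl carrier protein, by 0.39 (SE 0.10, adjusted p = 0.0334) (lost without WB c-myc array 1, 0.35, adjusted p = 0.0690), and the accessory subunits Ndufa5 by 0.35 (SE 0.09), Ndufa10 by 0.33 (SE 0.09) and Ndufa12 by 0.27 (SE 0.07). The Ndufa10 call was lost without WA empty array 2 (0.31, adjusted p = 0.0606), without WC empty array 3 (0.29, adjusted p = 0.0613) and without WB c-myc array 1 (0.31, adjusted p = 0.0526).

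Of the 6 nuclear core subunits of complex I (Ndufv1, Ndufv2, Ndufs1, Ndufs3, Ndufs7 and Ndufs8), which hold the flavin and the iron-sulfur clusters, 3 rose, with a median of 0.33. Of its 30 other members 4 rose, with a median of 0.15. This split was made after the values were seen and was not tested. The lowest member of the complex, Ndufv3, an accessory subunit of the NADH arm, was at -0.38 (SE 0.16, adjusted p = 0.132) and was not called over the lines.

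Complex II has 4 subunits, which are also an enzyme of the citric acid cycle. Sdhd, a membrane anchor, gave 3356, 3154 and 4310.3 in WA, 3295, 3678 and 3634 in WB and 2448, 4193 and 3496 in WC with the empty vector. With c-myc Sdhd gave 5330.1, 5611 and 5660.2 in WA, 5211, 4843 and 4064 in WB and 4765, 4782 and 4809 in WC. With v-src Sdhd gave 3334, 3128 and 3384 in WA, 3519 and 3756 in WB and 3440.2, 3324 and 2829 in WC. Empty vector arrays of WA and WC were spread widely, yet none reached its line's c-myc arrays, and Sdhd rose by 0.52 (SE 0.09, adjusted p = 0.00836), 1.44-fold. The flavoprotein Sdha was at 0.30 (SE 0.10, adjusted p = 0.0676), the iron-sulfur subunit Sdhb at 0.22 (SE 0.07, adjusted p = 0.0598) and the other anchor, Sdhc, at 0.12 (SE 0.15, adjusted p = 0.615), none of them called.

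In complex IV the differences were small. Its common small subunits Cox8a, at 0.36 (SE 0.07, adjusted p = 0.0148), Cox7a2, at 0.24 (SE 0.05, adjusted p = 0.0189), and Cox4i1, at 0.23 (SE 0.06, adjusted p = 0.0251), rose, and the Cox4i1 call was at the threshold without WC c-myc array 1 (0.21, adjusted p = 0.05). Cox4i1 gave 8671, 8107 and 9283 in WA, 8539.9, 9005 and 9176 in WB and 10358, 9732 and 8890.0 in WC with the empty vector. With c-myc it gave 9707, 10899 and 11105 in WA, 10149, 10361 and 9719 in WB and 12544, 10709 and 10959.9 in WC. Its groups did not overlap in any line although the rise was only 1.18-fold. Cox6a2, the muscle form, had the lowest difference of the complex, -0.27 (SE 0.22, adjusted p = 0.431), at low signal.

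In ATP synthase the α subunit of the catalytic head led. Atp5a1 gave 9148, 9202 and 12325 in WA, 6903, 7410.4 and 7544 in WB and 11269, 11602 and 10480.0 in WC with the empty vector. With c-myc Atp5a1 gave 13413, 14469.9 and 14008 in WA, 10577, 10157 and 9776 in WB and 14221, 14099.9 and 13201 in WC. With v-src Atp5a1 gave 9434, 9422 and 9775 in WA, 8625 and 8224 in WB and 10618, 11428 and 11839 in WC. The c-myc arrays were the highest of each line, and Atp5a1 rose by 0.42 (SE 0.08, adjusted p = 0.0097), 1.34-fold. Atp5d, the δ subunit of the central stalk, rose by 0.23 (SE 0.06, adjusted p = 0.0339), a call lost without WA empty array 1 (0.21, adjusted p = 0.0605) or WA empty array 2 (0.21, adjusted p = 0.0669). The catalytic β subunit Atp5b was at 0.16 (SE 0.05, adjusted p = 0.0669), and Atp5k, a membrane subunit, had the lowest value, -0.22 (SE 0.11, adjusted p = 0.221).

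The c subunit, whose ring turns as protons pass, is made from Atp5g1, Atp5g2 and Atp5g3, which code for the same mature protein. Atp5g1 gave 3684, 3299.6 and 4122 in WA, 3596, 3768 and 3731 in WB and 2705, 3325 and 3024 in WC with the empty vector. With c-myc Atp5g1 gave 5208, 5316 and 4815 in WA, 4014, 4055 and 3986 in WB and 4719, 4578 and 4223 in WC. With v-src Atp5g1 gave 2675, 2571 and 3121 in WA, 2218 and 2489.6 in WB and 2506, 2718 and 2694 in WC. The c-myc arrays lay above the empty vector arrays in each line and the v-src arrays below them in WA and WB, while in WC the highest v-src array passed the lowest empty vector array.

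Atp5g1 rose with c-myc by 0.39 (SE 0.11, adjusted p = 0.0391) and fell in v-src cells by 0.41 (SE 0.11, adjusted p = 0.0406), each close to the threshold. The first call rested on WA empty array 2, without which it was not made (0.36, adjusted p = 0.0505), and the second was not made if WA empty array 3 (-0.39, adjusted p = 0.0561) or WC empty array 2 (-0.39, adjusted p = 0.0647) was left out. Between the oncogenes the gap was wider: the v-src level of Atp5g1 was below the c-myc level, at -0.80 (SE 0.11, adjusted p = 0.00236) or 1.74-fold, and this call held under every alternative run. Atp5g2 rose with c-myc by 0.31 (SE 0.08, adjusted p = 0.0385), lost without WB c-myc array 1 (0.27, adjusted p = 0.0665) or WC c-myc array 1 (0.29, adjusted p = 0.0538). Atp5g3 was at 0.13 (SE 0.05, adjusted p = 0.101) with c-myc and -0.14 (SE 0.05, adjusted p = 0.105) with v-src. With v-src against c-myc, Atp5g2 was at -0.34 (SE 0.08, adjusted p = 0.0222) and Atp5g3 at -0.27 (SE 0.05, adjusted p = 0.00739), so all 3 genes were lower.

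Within the lines, c-myc called more members higher than lower in each. In WA 43 of the 79 rose and 1 fell (19.0% and 18.5% of all genes), with a median of 0.27. In WB 19 rose and 3 fell (12.5% and 14.5%), with a median of 0.13. In WC 35 rose and 2 fell (18.6% and 18.6%), with a median of 0.19. The WB count of 19 was 8 without WB empty array 1, 10 without WB empty array 3, 8 without WB c-myc array 1 and 9 without WB c-myc array 2. With arrays centred on the median the splits were 11 and 1 in WA, 0 and 0 in WB and 12 and 1 in WC, and after quantile normalization 51 and 2, 25 and 4, and 40 and 2.

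The 21 members called over the lines were positive in each line, and 14 of them had their smallest difference in WB. In each of the 3 lines 13 members rose, 16.5% of the 79 against 6.71% of all genes: Atp5a1, Cox7a2, Cox8a, Cyc1, Ndufa12, Ndufa5, Ndufa6, Ndufs1, Ndufs7, Sdhb, Sdhd, Uqcrc2 and Uqcrfs1. Those that fell in a line were Ndufa3 in WA and WC, Ndufv3 in WC by 0.74, and Uqcrq, Ndufs5 and Ndufa2 in WB. The count that fell in WA was 0 without WA c-myc array 1 and 2 without WA c-myc array 3 or WC c-myc array 1, that in WB 1 without WB empty array 3 or WB c-myc array 3, and that in WC 4 without WC c-myc array 1 and 1 without WC empty array 1 or WC c-myc array 2 or 3. The effect of c-myc differed between lines for 10 members by limma's F test, 12.7% of the 79 against 16.2% of all genes.

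The clearest of these was Uqcr11, with 0.56 in WA, 0.09 in WB and 0.51 in WC (adjusted p = 0.00812). Cyc1 rose in each line, by 0.59 in WA, 0.34 in WB and 0.81 in WC (adjusted p = 0.0169). Sdha, the flavoprotein of complex II, was at 0.55 in WA, 0.21 in WB and 0.14 in WC (adjusted p = 0.0176), and Atp5md, a small membrane subunit of ATP synthase, at 0.31 in WA, -0.09 in WB and 0.59 in WC (adjusted p = 0.0143). The count of 10 was 4 to 6 without WA empty array 2 (6), WB empty array 3 (4), WA c-myc array 2 (6), WB c-myc array 2 (6) or WB c-myc array 3 (5), and 18 without WA empty array 3 and WC c-myc array 1 together.

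**Figure D4:**
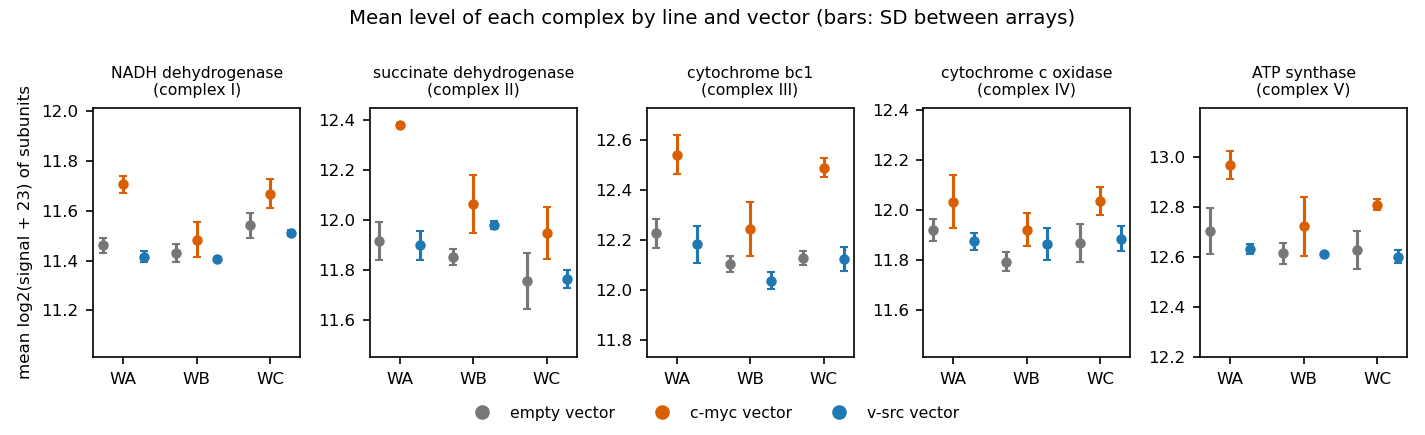
Mean log2(signal + 23) over the members of each complex that passed the filter, by parental line and vector, with the SD between arrays as bars. Each panel has its own axis of the same length, so that differences and not levels can be read across panels. The mean of all 79 members was 11.93 ± 0.05 with the empty vector and 12.18 ± 0.05 with c-myc in WA, 11.86 ± 0.03 and 11.96 ± 0.09 in WB, and 11.92 ± 0.05 and 12.10 ± 0.05 in WC (SD, 3 arrays each).

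With v-src the members stayed near the empty vector as a group. Over the lines 0 of the 79 were called higher, where 6.64% of all genes were, and 2 fell, where 6.79% did. In limma's test 17 of the 79 had an unadjusted p under 0.05 in either direction, and with the separate arrays fitted 11 were called higher and 19 lower. The matching shares of all genes were not counted, so these numbers cannot be set against a background. The median difference was -0.04, against 0.02 over all genes, and it was 0.01 after quantile normalization, which turns its sign, and -0.11 with arrays centred on the median. In each of the 3 lines 17 members were positive (27.2% of all genes) and 30 negative (26%).

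The member that fell most clearly was Uqcrc1, a core protein of complex III. Uqcrc1 gave 8282, 8062 and 9428 in WA, 7682, 8873 and 8864 in WB and 7913, 6337 and 7505 in WC with the empty vector. With v-src Uqcrc1 gave 6165, 6413 and 7971 in WA, 6402 and 5803 in WB and 5525, 5721 and 5251 in WC. With c-myc Uqcrc1 gave 8620.2, 10396 and 11550.2 in WA, 10225, 10520.0 and 8940.3 in WB and 9168, 8349.8 and 7397 in WC. Every v-src array lay below every empty vector array of its line. Over the lines Uqcrc1 fell in v-src cells by 0.40 (SE 0.06, adjusted p = 0.00659), 1.32-fold, and it was the only member that fell in each line taken alone, as 5.63% of all genes did (-0.33, -0.47 and -0.39 in the order WA, WB, WC). The call was lost without WB (-0.36, adjusted p = 0.0627) or without WC (-0.40, adjusted p = 0.0650), and kept in each other alternative. The count of 2 members that fell was 1 without WA empty array 3, 1 without WC empty array 2, 4 without WC empty array 1 and 4 without WB v-src array 2.

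Uqcrc1 shared the lack of overlap in all 3 lines with Ndufa5, Ndufb3 and Ndufv2, which makes 4 members with every v-src array below the empty vector arrays (9.07% of all genes). Ndufs4, an accessory complex I subunit, was the single member with every v-src array above them in all lines (7.47%). Ndufs4 was at 0.32 (SE 0.11, adjusted p = 0.106) over the lines and was not called. The dimmer probe sets of Ndufs4 gave 0.06 (mean log2 value 8.39), -0.34 (7.28) and 0.37 (6.09), so its value depends on the probe set. With the probe set used, the effect on Ndufs4 differed between lines, at 0.17, 0.17 and 0.62 (F test adjusted p = 0.0296). So did that on Atp5g1 (-0.40 in WA, -0.65 in WB and -0.19 in WC, adjusted p = 0.0497). These 2 are 2.53% of the members, against 13.5% of all genes, and the count was 0 or 1 without most single arrays, for example 0 without WB v-src array 3, WC v-src array 1 or WC v-src array 3.

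Within lines v-src called few members. In WA 2 rose and 11 fell (13.2% and 14.1% of all genes), in WB 6 rose and 5 fell (12.0% and 13.5%) and in WC 7 rose and 4 fell (13.8% and 15.1%). After quantile normalization the splits were 10 and 9, 13 and 5, and 14 and 5, and with arrays centred on the median 0 and 8, 1 and 3, and 3 and 0, so the balance of directions rests on the scaling. Without single arrays, the 11 that fell in WA became 6 without WA empty array 3, 5 without WA v-src array 1 and 4 without WA v-src array 2. The 2 that rose in WA became 1 without WA empty array 2 or 3 or WA v-src array 3 and 0 without WA v-src array 1. In WB the 6 that rose became 2 without WB empty array 1 or 2 or without either of its v-src arrays, and 3 without array 2 of WA or of WC with v-src, and the 5 that fell became 2 without its v-src array 2 and 3 without its v-src array 3. In WC the 4 that fell became 8 without WA empty array 3, 7 without WC empty array 1 or 3, and 2 without WC empty array 2 or WC v-src array 3. The largest single called values were Ndufv3 in WB at 0.80 (SE 0.17, adjusted p = 0.00098), Atp5g1 in WB at -0.65 (SE 0.10, adjusted p = 1.71e-05) and Ndufs4 in WC at 0.62 (SE 0.09, adjusted p = 1.58e-05).

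Set against c-myc directly, v-src cells had lower levels of 33 of the 79 members, where 13.7% of all genes were lower, and higher levels of 2, where 11.9% were higher. This comparison shares the c-myc arrays with that of c-myc against the empty vector, so 16 of the 21 members that rose with c-myc are among the 33. The median was -0.21, against -0.02 over all genes. After Atp5g1 the lowest were Ndufs8 at -0.65 (SE 0.09, adjusted p = 0.00322), Uqcrc1 at -0.62 (SE 0.06, adjusted p = 0.000957), Ndufa5 at -0.58 (SE 0.09, adjusted p = 0.00411) and Sdhd at -0.57 (SE 0.09, adjusted p = 0.00426). Ndufs1 was at -0.56 (SE 0.10), Ndufb1 at -0.53 (SE 0.13), Ndufs7 at -0.51 (SE 0.08), Uqcrc2 at -0.50 (SE 0.09), Ndufv2 at -0.45 (SE 0.09), Uqcrfs1 at -0.44 (SE 0.08), Ndufb10 at -0.40 (SE 0.09), Cyc1 at -0.39 (SE 0.09), Ndufa12 at -0.38 (SE 0.07) and Atp5a1 at -0.37 (SE 0.08). The Ndufb1 call was lost without WA v-src array 3 (-0.47, adjusted p = 0.0667).

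By complex, 15 of 36 members of complex I were lower with v-src than with c-myc, 1 of 4 of complex II, 6 of 9 of complex III, 2 of 12 of complex IV and 9 of 17 of ATP synthase. All 6 core subunits of complex I were among them, with a median of -0.48, and 9 of its 30 others, with a median of -0.18. Cycs was at -0.18 (SE 0.07, adjusted p = 0.106) and was not called. The count of 33 was 22 after quantile normalization, 29 with arrays centred on the median, 15 without an intensity trend and 6 to 20 without 1 line. For these alternatives, too, the share of all genes called was not counted.

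The 2 members that were higher with v-src than with c-myc were accessory subunits of complex I. Ndufv3 gave 2659, 2164 and 3271 in WA, 2279, 2512 and 2419 in WB and 4190.4, 3927 and 3013 in WC with the empty vector. With c-myc Ndufv3 gave 2125, 2556 and 2444 in WA, 2079, 2191 and 1891 in WB and 2992, 2100.4 and 1664 in WC. With v-src Ndufv3 gave 3169, 2869 and 3238 in WA, 4252 and 4163 in WB and 4526, 4413 and 4409 in WC. Every v-src array lay above the c-myc arrays of its line. Empty vector arrays lay between those of the oncogenes in WB and WC, and in WA they overlapped both. The difference between oncogenes was 0.81 (SE 0.16, adjusted p = 0.00918), lost without WB (0.70, adjusted p = 0.0530) or without WC (0.70, adjusted p = 0.0653), and those from the empty vector were -0.38 (SE 0.16, adjusted p = 0.132) with c-myc and 0.43 (SE 0.16, adjusted p = 0.112) with v-src. Ndufa1 was at 0.24 (SE 0.07, adjusted p = 0.0349), a call lost without WA empty array 2 (0.24, adjusted p = 0.0516), WB empty array 2 (0.24, adjusted p = 0.0564) or WC c-myc array 2 (0.21, adjusted p = 0.0554).

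The parental lines differed in single subunits, with called differences of up to 0.81 in size. With the empty vector, WB had 4 members higher and 17 lower than WA (13.4% and 12.7% of all genes). WC had 8 higher and 11 lower than WA (15.1% and 14.7%), and 15 higher and 9 lower than WB (16.0% and 16.5%). In all, 36 members were called between at least 1 pair of lines, 45.6% of the 79 against 48.9% of all genes. After quantile normalization these splits were 9 and 12, 15 and 10, and 15 and 14, and with arrays centred on the median 1 and 7, 0 and 14, and 3 and 9. The 17 became 11 without WA empty array 3 and 9 without WB empty array 1, and the 4 became 2 and the 8 became 5 without WA empty array 2, while the 11 became 7 without WC empty array 1.

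Ndufa3, an accessory subunit of complex I, differed most. Ndufa3 gave 5386, 4893 and 6536 in WA, 3279, 3470.2 and 3504 in WB and 6301, 6174 and 5597 in WC with the empty vector. With c-myc Ndufa3 gave 4532, 4717 and 4567 in WA, 2983, 3073 and 2955 in WB and 5712, 4509 and 4713 in WC. With v-src Ndufa3 gave 4349.5, 4263 and 4434 in WA, 3299 and 3391 in WB and 5149, 5572 and 5039 in WC. WB was below WA and WC with each vector, without overlap. WB against WA gave -0.70 (SE 0.09, adjusted p = 1.56e-06) and WC against WB 0.81 (SE 0.09, adjusted p = 1.25e-07).

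Several subunits were lowest in WC. Atp5md gave 3592, 3252 and 4304 in WA, 3968, 3937 and 4459.8 in WB and 2129, 2777 and 2916 in WC with the empty vector, with WC against WB at -0.67 (SE 0.11, adjusted p = 6.97e-05) and WC against WA at -0.51 (SE 0.11, adjusted p = 0.0013). Atp5md is a small subunit that links ATP synthase dimers. Uqcrq of complex III gave 4409, 4504 and 4936 in WA, 3719, 3983 and 4088 in WB and 3354, 2904 and 2788 in WC, with WC against WA at -0.61 (SE 0.09, adjusted p = 1.07e-05). Sdha gave 4008, 3731 and 3397 in WA, 4189.7, 4242 and 4139 in WB and 2913, 3108 and 2861 in WC, and WC against WB was -0.50 (SE 0.07, adjusted p = 1.24e-05). In each of these 3 genes all WC arrays lay below those of both other lines.

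Other subunits were highest in WC. Ndufb8, an accessory complex I subunit often used as a marker of the assembled enzyme, was at 0.54 (SE 0.10, adjusted p = 0.000117) in WC against WB and 0.43 (SE 0.10, adjusted p = 0.00145) against WA. Ndufv3 was at 0.61 (SE 0.15, adjusted p = 0.00329) and 0.46 (SE 0.15, adjusted p = 0.0249), and Atp5a1 at 0.61 (SE 0.08, adjusted p = 4.73e-06) against WB. WB was lower than WA in Atp5a1 (-0.47, SE 0.08), Cox7a2l (-0.48, SE 0.11), Ndufc2 (-0.43, SE 0.07) and Uqcrc2 (-0.41, SE 0.07) and higher in Ndufa5 (0.44, SE 0.07). WC was also lower than WA in Atp5d (-0.53, SE 0.09) and Atp5c1, the γ subunit (-0.43, SE 0.08), and higher than WB in Uqcrc2 (0.55, SE 0.07). A line was present only as the cells cultured here, so these tests compare 3 cell populations.

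**Figure D5:**
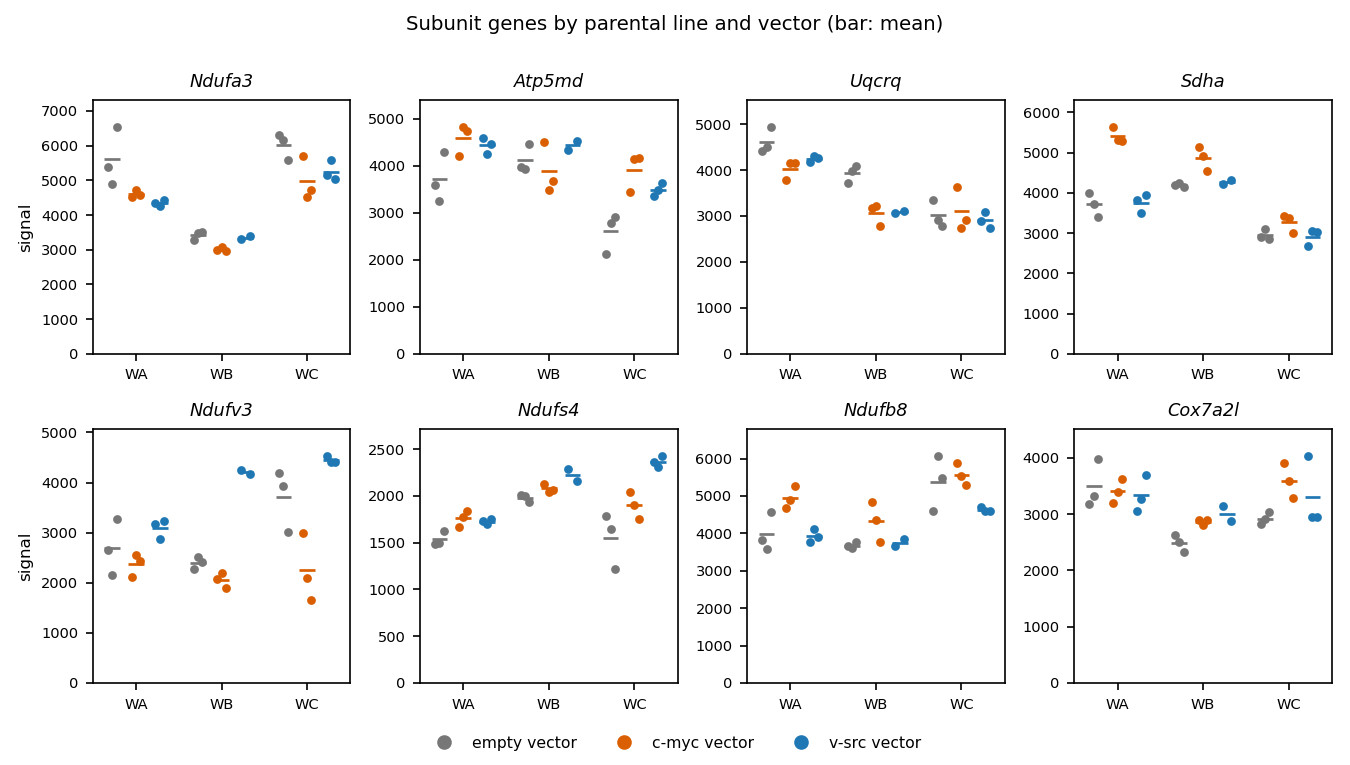
Signal of 8 members on each of the 26 arrays by parental line and vector, on axes that start at 0, with the group mean as a bar. Ndufa3 is lowest in WB and Sdha lowest in WC under each vector, while Ndufv3 and Ndufs4 reach their highest signals, up to 4526 and 2425, with v-src in WC.

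Genes that serve the chain without being subunits of it were counted from lists of assembly factors, citric acid cycle enzymes, regulators and carriers. With c-myc, 3 of 15 tested assembly factors of complex I rose, led by Ndufaf6 at 1.23 (SE 0.11, adjusted p = 0.00212), Nubpl, which delivers iron-sulfur clusters, at 0.70 (SE 0.14, adjusted p = 0.0129), and Ecsit at 0.49 (SE 0.12, adjusted p = 0.0275). Of 9 for complexes II and III 1 rose, Uqcc1 (0.52, SE 0.10, adjusted p = 0.0136). Of 18 for complex IV 3 rose, among them Lrpprc, which stabilizes mitochondrial messenger RNA, at 0.74 (SE 0.13, adjusted p = 0.00943), Coa7 at 0.68 (SE 0.15) and Cox15, which makes haem a, at 0.49 (SE 0.14). Of 3 for ATP synthase Atpaf2 rose (0.99, SE 0.19, adjusted p = 0.013).

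In the citric acid cycle 5 of 15 tested enzymes rose with c-myc, with Idh3g at 0.56 (SE 0.10, adjusted p = 0.01), Pdhb at 0.55 (SE 0.12, adjusted p = 0.0197) and Mdh2 at 0.24 (SE 0.06, adjusted p = 0.0236) the lowest in adjusted p. Of 15 regulators 4 rose: the mitochondrial DNA helicase Twnk by 0.86 (SE 0.14, adjusted p = 0.00751), the mitochondrial transcription factor Tfam by 0.68 (SE 0.13, adjusted p = 0.0111), the polymerase subunit Polg2 by 0.62 (SE 0.13) and the coactivator Pprc1 by 0.46 (SE 0.10). Of 15 carriers and quinone enzymes 4 rose, among them the ADP/ATP carrier Slc25a5 by 0.40 (SE 0.06, adjusted p = 0.00616) and Coq7 and Coq8a, which act in ubiquinone synthesis, by 0.67 (SE 0.13) and 0.94 (SE 0.21). Over all genes tested 10.0% rose. The list medians were 0.29 for complex I assembly, -0.04 for complexes II and III, 0.23 for complex IV, 0.28 for ATP synthase assembly, 0.28 for the cycle, 0.32 for regulators and 0.20 for carriers, against 0.04 over all genes. Limma called 0 members of these lists lower, where 9.76% of all genes were lower. Counts at an unadjusted p under 0.05, in either direction, were 7 for complex I assembly and 2 for complexes II and III. They were 7 for complex IV, 1 for ATP synthase, 9 for the cycle, 7 for regulators and 7 for carriers. The share of all genes at that unadjusted p was not counted, so these counts cannot be set against a background.

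With v-src, Coa7 was the only gene of these lists that rose (0.59, SE 0.15, adjusted p = 0.0388), where 6.64% of all genes did. Of all genes 6.79% fell. Those that fell here were 3 of the 15 carriers and quinone enzymes and 2 of the 15 cycle enzymes, and no gene of the other lists. The 3 were Slc25a4, another ADP/ATP carrier (-0.35, SE 0.07, adjusted p = 0.0181), Etfb (-0.43, SE 0.09) and Etfdh (-0.48, SE 0.13). Etfb and Etfdh pass electrons from fatty acid oxidation to ubiquinone. The 2 of the citric acid cycle were Pdha1 (-0.44, SE 0.09) and Fh1 (-0.41, SE 0.09). Against c-myc, v-src cells had lower levels of 10 of the 15 cycle enzymes, 7 of the 15 complex I assembly factors, 7 of the 15 regulators, 5 of the 15 carriers and quinone enzymes and 2 of the 3 ATP synthase assembly factors, where 13.7% of all genes were lower. Among complex IV assembly factors 3 of 18 were lower, and among those of complexes II and III 2 of 9 were lower and Ttc19 was higher. The list medians were -0.37 for the cycle, -0.51 for complex I assembly, -0.30 for regulators, -0.32 for carriers, -0.58 for ATP synthase assembly, -0.11 for complex IV and 0.02 for complexes II and III, against -0.02 over all genes. Ndufaf6 was at -1.18 (SE 0.11, adjusted p = 0.000833) and Twnk at -1.0 (SE 0.14, adjusted p = 0.00286).

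Several members are measured by more than 1 probe set, which bears on how far a direction can be read. Of the 42 members with several probe sets above a mean log2 value of 8, 38 had the same sign in all of them with c-myc and 4 did not (Atp5k, Cox6c, Ndufb7 and Ndufc1). With v-src 21 had the same sign and 21 did not. For Sdhd the probe set used gave 0.52 with c-myc and -0.04 with v-src, and the dimmer one 0.52 and 0.52. For Ndufs8 the probe set used gave 0.41 with c-myc and -0.24 with v-src. Its other probe sets gave 0.10 to 0.33 with c-myc and -0.38 to 0.18 with v-src, so the one used showed the largest rise. For Atp5g1 the mean of its probe sets turned the c-myc difference to -0.18 (adjusted p = 0.266), its second probe set having a mean log2 value of 5.37. For Cyc1, Uqcrfs1, Ndufs1, Uqcrc1 and Ndufv3 there was 1 probe set.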

How the data were processed

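The series holds 26 arrays of 45101 probe sets. The deposited values are linear intensities (MAS5 signals, per the submitters' processing notes), and each array's 2% trimmed mean is 500, per a check of the deposited values, so differences in total RNA do not show. Names came from the platform annotation: 34958 probe sets named 1 gene, 932 several (not used) and 9211 none.

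Signals were converted to log2(signal + 23). Probe sets with a mean above the 40th percentile (6.52) were kept, and the brightest per gene was used, which left 13018 genes. limma 3.58.1 in R 4.3.3 was fitted with an intensity trend and Benjamini-Hochberg adjustment over these genes, with 0.05 as the threshold. Effects over the lines used the 9 averages of line and vector, with line as a covariate (4 residual degrees of freedom), since arrays of a group may be technical repeats. Tests within a line, between lines and of differing effects used the 26 arrays with 9 means (17 residual degrees of freedom). The scripts were tested on simulated data.

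Genes named were the called members with the largest differences per comparison (up to 15 each way), the lowest and highest of each complex, paralogous forms, those with the smallest F test p, the 6 largest called differences between each pair of lines, and pathway genes called; others were chosen after their values were seen. Members and lists were chosen with earlier results of these data known. Alternatives covered the pseudocount, the filter, normalization, centring, probe sets, trend, replicate block and leaving out arrays or lines. The share of all genes called was not counted for any alternative, so member counts under alternatives have no background beside them.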

Additional observations from a re-analysis of the deposited data

Results flagged for a closer look

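The effect of c-myc differed between the 3 lines, by limma's F test over all genes, for 10 members. That is 12.7% of the members, below the 16.2% of all genes. Values are given in the order WA, WB and WC throughout. Uqcr11 was at 0.56, 0.09 and 0.51 (adjusted p = 0.00812), Atp5md at 0.31, -0.09 and 0.59 (0.0143), and Cyc1 at 0.59, 0.34 and 0.81 (0.0169). Atp5g1 was at 0.47, 0.12 and 0.58 (0.0243), Ndufab1 at 0.53, 0.11 and 0.53 (0.0335), and Ndufa8 at 0.32, 0.02 and 0.31 (0.0446). In these 6 genes WB had the lowest value. Both complex II members among the 10 were highest in WA: Sdha was at 0.55, 0.21 and 0.14 (0.0176) and Sdhc at 0.42, 0.01 and -0.08 (0.0388). Ndufa2 was at 0.20, -0.24 and -0.06 (0.0339) and Atp5l at 0.26, -0.16 and 0.04 (0.0463), again lowest in WB.

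The effect of v-src differed between lines for 2 members, 2.53% of them against 13.5% of all genes. Ndufs4 was at 0.17, 0.17 and 0.62 (adjusted p = 0.0296), with its largest value in WC, and Atp5g1 at -0.40, -0.65 and -0.19 (0.0497), with its lowest in WB. The comparisons with c-myc and with v-src share the empty vector arrays.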

How the results depend on the processing

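The 3 lines and 26 arrays limit the precision, and the labels do not state that replicate numbers pair the arrays. Deviations of arrays with the same number correlated with a mean r of -0.0102 (100 pairs, 9 above 0.1). For different numbers the mean r was 0.0051 (200 pairs, 27 above 0.1). With 2 or 3 arrays per group these values cannot show whether the arrays were paired. With a replicate block the members whose v-src effect differed between lines numbered 1 instead of 2, and no other count from the single-array fit moved by over 1.5 times. With separate arrays and a replicate block, 51 members were higher and 3 lower with c-myc, 9 higher and 18 lower with v-src, and 50 lower with v-src than with c-myc. With separate arrays and no block these counts were 52, 3, 11, 19 and 50. With arrays blocked at random by line and vector they were 36 and 2 for c-myc and 4 and 6 for v-src. Shares of all genes called were not counted for these fits. The cause of the other changes was not tested.

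With arrays centred on the median, 8 members were higher with c-myc over the lines, and within lines 11 in WA, 0 in WB (0 lower) and 12 in WC (1 lower). For v-src centring gave a median of -0.1065 and 4 lower over the lines, with 0 higher in WA, 1 higher and 3 lower in WB, 3 higher and 0 lower in WC, and 1 higher than with c-myc. It left 1 higher and 7 lower in WB against WA, 0 higher in WC against WA, 3 higher in WC against WB, and 0 members with differing effects for either vector. Quantile normalization gave a v-src median of 0.0149, 1 higher over the lines, 10, 13 and 14 in WA, WB and WC, 2 lower with c-myc in WA, 9 higher in WB against WA, 15 higher in WC against WA, 14 lower in WC against WB, and 4 members with differing v-src effects.

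Without an intensity trend, 6 were higher with c-myc over the lines and 10 in WB. That fit gave for v-src 1 lower over the lines, 1 higher and 7 lower in WA and 2 higher in WB, 1 higher and 15 lower than with c-myc, and 5 and 0 members with differing c-myc and v-src effects. Without the filter, 1 was higher with v-src than with c-myc, 1 lower with v-src over the lines and 3 higher in WB. With the mean of probe sets, 0 were lower with c-myc in WA and 1 in WC, and 5 lower with v-src in WA. A pseudocount of 1 left 1 member with a differing v-src effect. The mean of probe sets turned Atp5g1 with c-myc to -0.18 (adjusted p = 0.266), and quantile normalization turned Uqcrb with v-src against c-myc to 0.0044 (adjusted p = 0.954). Without WA empty replicate 3 and WC c-myc replicate 1, a choice made after seeing the data, 13 were higher in WC against WA, 5 lower with c-myc in WB and 4 in WC, 6 lower with v-src in WA, 9 in WC and 1 over the lines, and 18 had differing c-myc effects.

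Leaving out single arrays gave 17 to 27 members higher with c-myc over the lines and, within WA, WB and WC, 36 to 52, 8 to 22 and 26 to 37, and 0 to 2, 1 to 4 and 1 to 4 lower in WA, WB and WC. With v-src 1 to 4 were lower over the lines, 0 to 3 higher and 4 to 13 lower in WA, 2 to 8 and 2 to 5 in WB, and 5 to 7 and 2 to 8 in WC. Against c-myc, 1 to 2 were higher and 30 to 40 lower with v-src. Between lines the ranges were 2 to 5 higher and 9 to 21 lower for WB against WA, 5 to 12 and 7 to 12 for WC against WA, and 11 to 17 and 7 to 10 for WC against WB. Differing effects ranged from 4 to 15 members for c-myc and 0 to 3 for v-src. Medians ranged from 0.18 to 0.22 for c-myc, -0.05 to -0.02 for v-src and -0.24 to -0.19 for v-src against c-myc. Without lines WA, WB and WC in turn, 0, 12 and 0 were higher with c-myc, 1, 0 and 0 lower with v-src, and 7, 20 and 6 lower and 1, 0 and 0 higher with v-src than with c-myc, with 2 lines left in each fit.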
